A study of Mus musculus with 10 samples.

Results

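Transcription factor genes of the post-implantation epiblast were followed through 10 mouse RNA-seq libraries, to compare their onset in epiblast-like cells with their level in epiblast stem cells. They were found by symbol from 10 names, Otx2, Pou3f1, Oct6, Lef1, Sox11, Bcl11a, Vrtn, Zic2, Zic5 and Sox4. These names gave 9 of the 54532 genes in the deposited tables, since Oct6 is an older name of Pou3f1 in RefSeq and no separate gene in the tables. All 9 genes passed the filter on low counts.

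Every library bears the strain label 129SV and holds poly-A selected RNA. Epiblast stem cells (EpiSC), self-renewing cells derived from the epiblast after implantation, gave 5 libraries. These were the lines haEpi1 and haEpi5, both haploid and of genotype P53 - (called p53-KO here, as in the titles of the other libraries with that genotype), a female line (its title ends in fema) and a male line, both wild type and diploid, and 1 diploid line labelled p53-KO. Epiblast-like cells (EpiLC), a transient state that embryonic stem cells enter when they leave the naive state, gave 1 haploid library labelled p53-KO and 1 haploid wild-type library. The sources used here do not give the day of EpiLC induction. Embryonic stem cells (ESC), the naive state of the epiblast before implantation, gave 1 haploid and 1 diploid library, both wild type. Mouse embryonic fibroblasts (MEF), wild type and diploid, gave 1 library as a somatic reference. The design text speaks of triplicates, and 1 library per line was analysed here.

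When the mouse embryo implants, the epiblast shuts down the naive network and switches on a second set of transcription factors while Oct4 and Sox2 stay on. Otx2 and Pou3f1 act early in that switch, Lef1 carries the Wnt signal to its target genes, and Zic and SoxC factors serve both the epiblast and the neural plate that arises from it. Several of these genes are therefore read both as marks of the primed state and as early neural genes.

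The libraries held 15862113 to 18814003 counted reads. Levels are given as CPM, the reads of a gene scaled to a common library size with TMM factors. With a floor of 3 counts, a count of 0 allowed a level of at most 0.150 to 0.194 CPM, and this limit covers counting error only. Trp53, the gene of p53, ran from 2.17 to 61.8 CPM in the 4 libraries labelled p53-KO and from 28.5 to 375 CPM in the 6 labelled wild type. These ranges overlapped, so each genotype below is the one in the label. The labels do not say whether libraries of a cell type came from separate cultures, and lines, sex, p53 label and ploidy differ within cell types. The p-values measure the spread between these libraries. In bulk RNA, fewer cells that express a gene and less RNA per cell cannot be told apart.

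Promoter windows of 250 bases up to the RefSeq start were found for 7 of the 9 genes (RefSeq, GRCm38.p6). Otx2 and Lef1 had 4 windows each and Vrtn had 3, and the window nearest to the start of the gene as counted was read. For Otx2 and Bcl11a that window lies inside the gene as counted, 6175 and 2639 bases from its start. They are shown for Sox4 and Sox11, the SoxC pair whose levels lay highest in EpiSC relative to EpiLC, for Vrtn, which was nearly silent in ESC, and for Lef1, which lay highest in EpiLC relative to EpiSC. Capitals mark CCAAT on either strand (ATTGG on the strand shown) in Sox4, Sox11 and Vrtn, and CAGCAGG, a letter string of Zic binding motifs, in Lef1.
Sox4, chr13:28953700-28953949, minus strand: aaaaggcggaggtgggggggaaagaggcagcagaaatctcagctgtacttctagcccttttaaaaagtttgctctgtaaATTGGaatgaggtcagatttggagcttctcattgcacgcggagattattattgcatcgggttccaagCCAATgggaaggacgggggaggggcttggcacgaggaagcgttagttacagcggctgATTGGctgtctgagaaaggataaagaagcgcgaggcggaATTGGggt
Sox11, chr12:27342719-27342968, minus strand: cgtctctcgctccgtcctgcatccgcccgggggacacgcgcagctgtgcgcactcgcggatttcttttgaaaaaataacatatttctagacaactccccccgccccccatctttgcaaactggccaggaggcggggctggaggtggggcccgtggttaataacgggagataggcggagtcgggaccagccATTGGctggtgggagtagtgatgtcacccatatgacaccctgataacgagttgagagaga
Vrtn, chr12:84640769-84641018, plus strand: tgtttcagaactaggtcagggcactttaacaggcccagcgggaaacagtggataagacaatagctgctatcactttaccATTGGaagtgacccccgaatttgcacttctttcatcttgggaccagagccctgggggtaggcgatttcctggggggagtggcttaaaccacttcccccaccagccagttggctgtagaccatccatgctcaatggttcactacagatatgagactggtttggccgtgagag
Lef1, chr3:131110073-131110322, plus strand: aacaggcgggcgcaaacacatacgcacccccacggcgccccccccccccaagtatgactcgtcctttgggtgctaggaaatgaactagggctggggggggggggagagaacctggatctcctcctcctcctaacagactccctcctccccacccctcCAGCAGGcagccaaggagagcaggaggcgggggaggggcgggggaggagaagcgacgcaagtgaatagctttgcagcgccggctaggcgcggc
The letters CCAAT, read on both strands, were in 4 of the 7 windows, those of Sox4, Sox11, Bcl11a and Vrtn, against 33.8% of 32817 windows of the same length in the table. Sox4 alone held 4 matches, the nearest 8 bases from the start, and its last 14 bases lie within the gene as counted. CAGCAGG was in the Lef1 window, 93 bases from the start, and in 8.45% of all windows. TATAAA was in the Otx2 window and in 12.4% of all windows. TAATCC (OTX), ATGCAAAT (POU octamer), CTTTGAT (TCF/LEF) and AACAAT (SOX) were searched on both strands and were not in these 7 windows, and they were in 6.25%, 1.6%, 3.21% and 9.42% of all windows. Over all 15 windows of the 7 genes, CCAAT was also in another Otx2 window, TATAAA in a Lef1 window and TAATCC in an Otx2 window, so these counts depend on the start chosen. The GC content of the 4 windows shown ran from 50.8% in Sox4 to 66.4% in Lef1, against a median of 52.4% over all windows.

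All 9 genes lay higher in both EpiLC libraries than in both ESC libraries. Of these, 5 rose by the test: Otx2, Pou3f1, Lef1, Bcl11a and Vrtn, while Sox11, Zic2, Zic5 and Sox4 did not pass it. All 9 rose in EpiSC against ESC. With wild-type libraries only 2 of the 9 passed there, Sox4 and Vrtn, and with haploid libraries only 1, Pou3f1, all 9 values staying positive in both. The test was the quasi-likelihood test of edgeR with Benjamini-Hochberg adjustment over 21104 genes and a threshold of 0.05, with the 10 libraries fitted together and a mean for each cell type. Over all genes tested, 0.317% rose in EpiLC against ESC and 6.86% rose in EpiSC against ESC. Libraries that did not overlap and lay higher were common: 20.6% of all genes in EpiLC against ESC and 17.2% in EpiSC against ESC, beside 9 of 9 genes in each comparison here. The median log2 fold change of the 9 genes was 3.36 in EpiLC and 3.71 in EpiSC, against -0.05 and -0.02 over all genes tested. Both comparisons share the ESC libraries.

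The EpiLC calls depended on single libraries, while the direction of the 9 values did not. Without the diploid ESC, the wild-type EpiLC or the haEpi1 library, 0 of the 9 genes passed in EpiLC against ESC. Without the haploid ESC or the diploid p53-KO EpiSC library 1 passed, Pou3f1, and without the female EpiSC library 3 passed, Pou3f1, Lef1 and Bcl11a. Without the p53-KO EpiLC library 6 passed, with Zic2 added. EpiSC libraries enter here because all cell types share 1 estimate of the spread. With any 1 library left out, the log2 fold changes of the 5 genes stayed between 2.79 (Otx2) and 7.35 (Bcl11a).

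**Figure D1:**
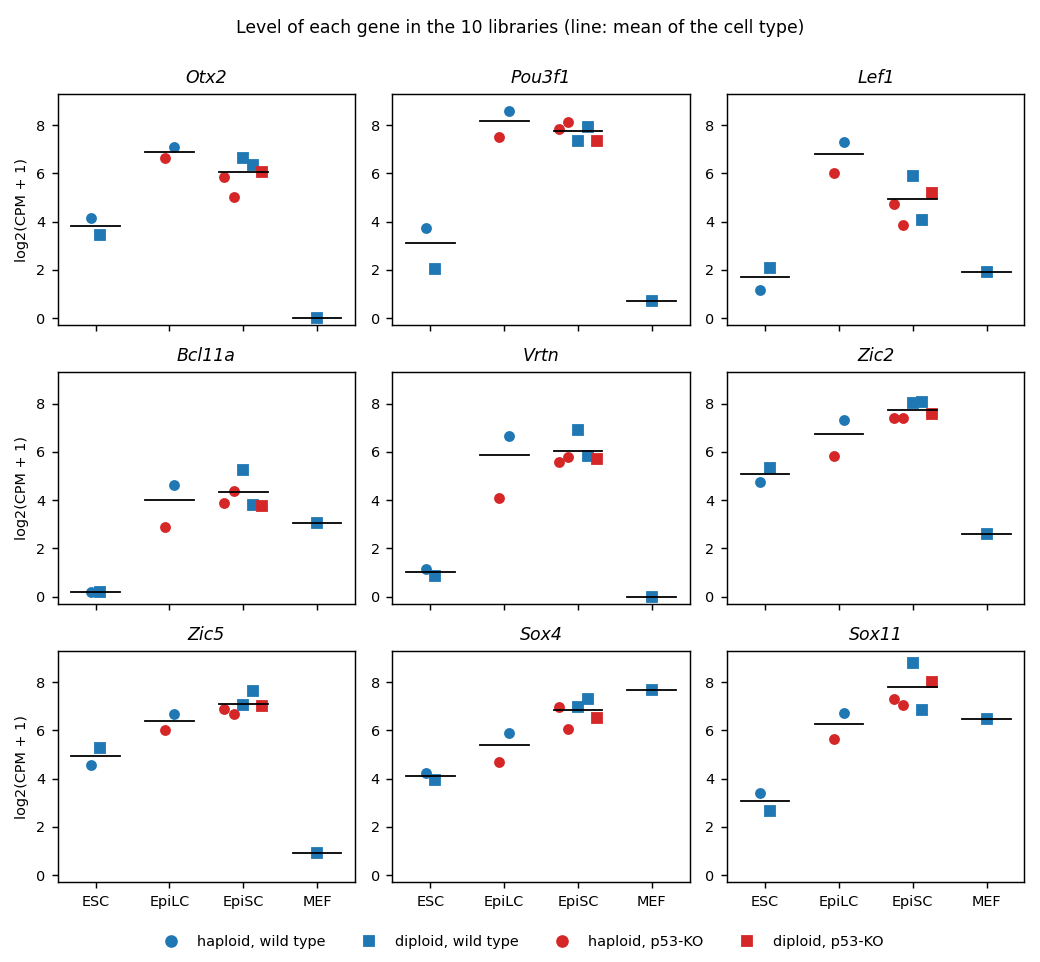
Level of each of the 9 genes in every library on a log2(CPM + 1) axis, by cell type, with colour for the p53 label, shape for ploidy and a line at the mean of the cell type. All 9 genes lie higher in EpiLC and EpiSC than in ESC, Sox4 reaches its highest level in MEF, and Otx2 and Vrtn have no counts in MEF.

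Otx2, a homeobox factor that drives the exit from the naive state and later patterns the forebrain, lies at chr14:48657677-48673819 on the minus strand (mm10, ENSMUSG00000021848). Its level was 9.94 CPM in diploid and 16.5 CPM in haploid ESC, and 98.02 CPM in p53-KO and 135 CPM in wild-type EpiLC. In EpiSC it was 31.9 CPM in haEpi5, 56.3 in haEpi1, 65.4 in the diploid p53-KO line, 79.7 in the male and 98.4 in the female line. The wild-type EpiLC library was the highest of the 10, and the female EpiSC line just exceeded the p53-KO EpiLC library, so EpiLC and EpiSC overlapped. The log2 rise of Otx2 was 3.14 ± 0.50 in EpiLC (SE, 8.84-fold, edgeR adjusted p = 0.0345) and 2.31 ± 0.44 in EpiSC (4.95-fold, adjusted p = 0.00749). The second call ended without the diploid ESC library (1.98, adjusted p = 0.0729; adjusted p = 0.0211 without the haploid one). Its relative Otx1 was at most 1.66% of the summed FPKM of the pair in any EpiSC library, so Otx2 made up nearly all of that family.

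Pou3f1, the POU-domain factor also known as Oct6, a classical mark of the primitive ectoderm and later of Schwann cells, lies at chr4:124656807-124660655 on the plus strand (ENSMUSG00000090125). Its level was 3.04 CPM in diploid and 12.2 CPM in haploid ESC. It reached 182 CPM in p53-KO EpiLC and 388 CPM in wild-type EpiLC. In EpiSC it was 159 CPM in the female line, 161 in the diploid p53-KO line, 227 in haEpi1, 243 in the male line and 281 in haEpi5. The wild-type EpiLC library again lay above all others, whereas the p53-KO EpiLC library lay within the EpiSC range. The rise was 5.24 ± 0.67 in EpiLC (37.8-fold, edgeR adjusted p = 0.0249) and 4.80 ± 0.63 in EpiSC (27.9-fold, adjusted p = 0.00138). Among the 4 class III POU genes Pou3f1 held a mean of 98.4% of the summed FPKM in EpiSC and 99.6% in EpiLC. In MEF, where 10 reads gave 0.638 CPM, it held 5.93%, and Pou3f3 held 75.1%.

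Lef1, the HMG-box factor through which beta-catenin activates Wnt target genes, lies at chr3:131110471-131224356 on the plus strand (ENSMUSG00000027985). Its level was 3.17 CPM in diploid and 1.25 CPM in haploid ESC. It reached 63.8 CPM in p53-KO EpiLC and 156 CPM in wild-type EpiLC. The EpiSC levels were 13.5 CPM in haEpi5, 15.6 in the male line, 25.8 in haEpi1, 35.0 in the diploid p53-KO line and 58.1 in the female line. Both EpiLC libraries lay above all 5 EpiSC libraries, and no other gene of the 9 did so. Lef1 rose by 5.63 ± 0.88 in EpiLC (49.6-fold, edgeR adjusted p = 0.0345) and by 3.71 ± 0.77 in EpiSC (13.1-fold, adjusted p = 0.0107). The EpiSC call ended without the haploid ESC library (3.16, adjusted p = 0.0601; adjusted p = 0.0387 without the diploid one).

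By FPKM, which divides by the length of the gene as counted (8788 bases for Lef1), Lef1 was a minor part of its family in every cell type. By reads alone it was not minor in EpiLC, with a mean of 110 CPM beside 102 for Tcf7 and 136 for Tcf7l1. Of the summed FPKM of the 4 TCF/LEF genes it held a mean of 0.401% in ESC, 13.9% in EpiLC and 4.81% in EpiSC. Tcf7l1, which mainly represses Wnt targets, and Tcf7 held 40.5% and 44.1% in EpiLC and 51.8% and 39.4% in EpiSC. Wnt target genes showed no common rise beside that of Lef1. In a list of 14, which includes Tcf7, none passed in EpiLC against ESC by edgeR (3 at an unadjusted p under 0.05, 1 by DESeq2 and 1 by limma), and 4 of 14 had a positive value. In EpiSC against ESC 1 of the 14 fell, the homeobox gene Cdx1 (-5.74 ± 1.05, edgeR adjusted p = 0.00635), and none rose. Over all genes tested 2126 of 21104 fell there and 1447 rose. Between EpiSC and EpiLC 1 of 14 passed, beside 9.65% of all genes. This was Rnf43, a ubiquitin ligase that removes Wnt receptors, which was higher in EpiSC (2.86 ± 0.74, edgeR adjusted p = 0.0395).

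Bcl11a, a zinc finger repressor best known for silencing fetal globin genes, lies at chr11:24078056-24174123 on the plus strand (ENSMUSG00000000861). It had 3 reads in haploid and 2 in diploid ESC, against 102 in p53-KO EpiLC (6.42 CPM) and 372 in wild-type EpiLC (24.0 CPM). In EpiSC it was 12.3 CPM in the diploid p53-KO line, 13.1 in the male line, 13.8 in haEpi1, 19.6 in haEpi5 and 36.9 in the female line. It was close to silent in ESC, and 4 of the 5 EpiSC lines lay between the EpiLC libraries, with the female line above both. From the summed reads the ratio to ESC was 109 in EpiLC (exact binomial 95% interval 46.4 to 338) and 139 in EpiSC (59.5 to 429). These intervals pool the reads of the libraries, so they cover counting error only and not the spread between libraries. Both passed the test (edgeR adjusted p = 0.029 and 0.00139). By FPKM, which divides by gene length, Bcl11a was the lowest of the 9 genes in ESC, EpiLC and EpiSC, at 1.14 ± 0.94 FPKM in EpiLC (SD, n = 2) and 1.41 ± 0.77 in EpiSC (n = 5).

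Vrtn encodes vertnin, a DNA-binding protein known from the control of thoracic vertebra number, and lies at chr12:84641019-84651455 on the plus strand (ENSMUSG00000071235). Its level was 0.808 CPM in diploid and 1.20 CPM in haploid ESC. It reached 16.2 CPM in p53-KO EpiLC and 99.1 CPM in wild-type EpiLC. Among EpiSC lines it was 47.4 CPM in haEpi1, 51.5 in the diploid p53-KO line, 54.0 in haEpi5, 55.5 in the male line and 118 in the female line. The EpiLC libraries lay on either side of 4 of the 5 EpiSC libraries, and the female line lay apart from the other 4. Vrtn rose by 5.84 ± 0.89 in EpiLC (57.2-fold, edgeR adjusted p = 0.0345) and by 5.99 ± 0.86 in EpiSC (63.4-fold, adjusted p = 0.00215). Without the wild-type EpiLC library the EpiLC value was 3.97 and without the p53-KO EpiLC library 6.59.

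Zic2 and Zic5, zinc finger factors of the epiblast and neural plate, stand head to head on chromosome 14 with 9757 bases between them. Zic5 lies at chr14:122456795-122465677 on the minus strand (ENSMUSG00000041703) and Zic2 at chr14:122475435-122479852 on the plus strand (ENSMUSG00000061524). Zic2 was at 25.9 CPM in haploid and 38.9 in diploid ESC, and at 55.7 in p53-KO and 157 in wild-type EpiLC. In EpiSC it was 167 CPM in both haEpi1 and haEpi5, 191 in the diploid p53-KO line, 261 in the female and 268 in the male line. Every EpiSC library lay above both EpiLC libraries, which lay above both ESC libraries. For Zic5 the same order held, from 22.8 and 37.0 CPM in ESC through 64.3 and 101 in EpiLC to 101 CPM in haEpi5, 118 in haEpi1, 129 in the diploid p53-KO, 131 in the female and 199 in the male EpiSC line. The gap between haEpi5 and the wild-type EpiLC library was small for Zic5 (101.3 and 100.9 CPM), less than the counting error of either. In EpiSC against ESC, Zic2 rose by 2.67 ± 0.45 (edgeR adjusted p = 0.00442) and Zic5 by 2.15 ± 0.36 (adjusted p = 0.00411). In EpiLC against ESC the values were 1.71 ± 0.47 (adjusted p = 0.161) and 1.46 ± 0.38 (adjusted p = 0.143).

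The pair was already detected in ESC. Zic2 FPKM stood at 1.47 to 3.39 times Zic5 FPKM in all 9 pluripotent libraries, and at 9.70 times in MEF.

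Sox4 and Sox11, the HMG-box factors of the SoxC group that act in neural precursors and mesenchyme, had the lowest EpiLC levels relative to EpiSC. Sox4 lies at chr13:28948919-28953713 and Sox11 at chr12:27334264-27342574, both on the minus strand (ENSMUSG00000076431 and ENSMUSG00000063632). Sox4 was at 14.4 CPM in diploid and 18.03 in haploid ESC, and at 24.9 in p53-KO and 57.6 in wild-type EpiLC. The EpiSC levels were 66.1 CPM in haEpi5, 90.7 in the diploid p53-KO line, 126 in both haEpi1 and the female line and 157 in the male line. All EpiSC libraries lay above both EpiLC libraries. Sox11 was at 5.28 and 9.69 CPM in diploid and haploid ESC and at 48.8 and 104 in p53-KO and wild-type EpiLC. The EpiSC lines had 113 CPM in the male line, 131 in haEpi5, 156 in haEpi1, 256 in the diploid p53-KO line and 443 in the female line, again above both EpiLC libraries. In EpiSC against ESC, Sox4 rose by 2.78 ± 0.44 (6.88-fold, edgeR adjusted p = 0.0034) and Sox11 by 4.86 ± 0.72 (29.0-fold, adjusted p = 0.00246). In EpiLC against ESC, Sox4 stood at 1.35 ± 0.46 (adjusted p = 0.241) and Sox11 at 3.36 ± 0.71 (adjusted p = 0.0826).

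Within the SoxC group, Sox12, the third relative, held a mean of 75.7% of the summed FPKM in ESC, 61.8% in EpiLC and 37.4% in EpiSC. Sox11 held 5.09%, 19.9% and 32.3%, and Sox4 held 19.2%, 18.3% and 30.4%. The SoxC sum was 17.7 FPKM in ESC, 45.1 in EpiLC and 76.1 in EpiSC, with Sox12 itself at nearly the same FPKM in EpiLC and EpiSC (27.4 ± 10.5 and 27.7 ± 5.79, SD, n = 2 and 5).

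**Figure D2:**
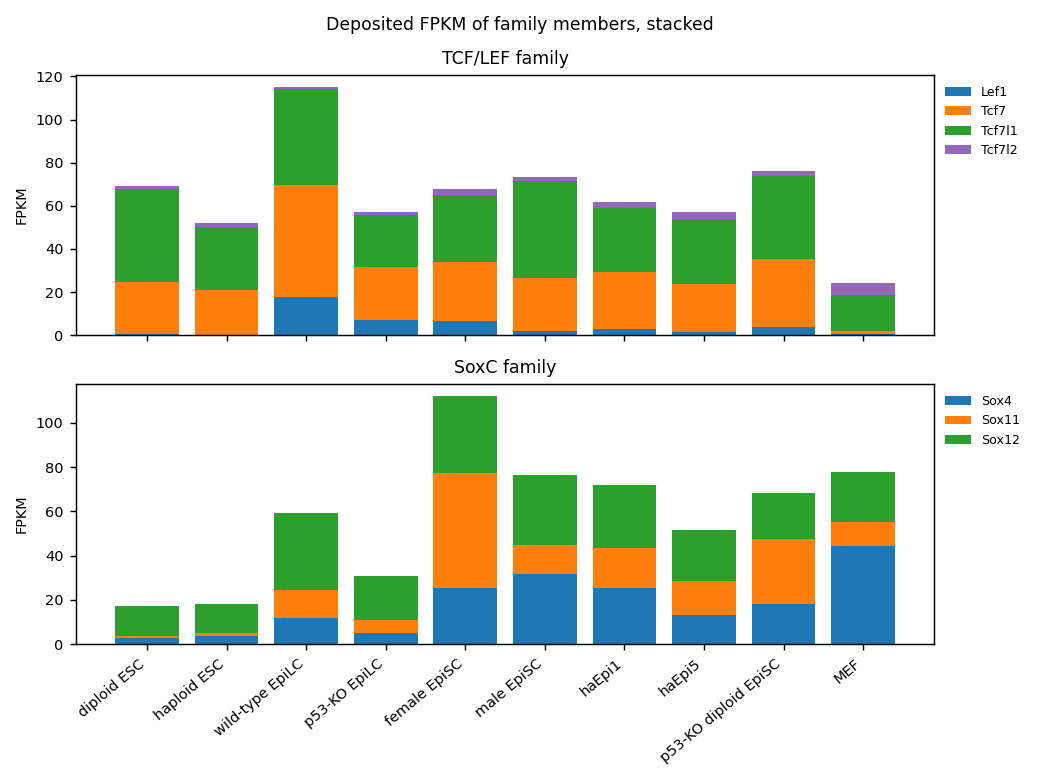
Deposited FPKM of the TCF/LEF and SoxC genes stacked for each of the 10 libraries, 1 bar per library and 1 colour per gene. Lef1 is a thin layer beside Tcf7 and Tcf7l1, and Sox4 and Sox11 thicken from ESC to EpiSC.

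The direct comparison of EpiSC with EpiLC ordered the genes by their EpiLC level relative to their EpiSC level. The labels do not link these EpiLC to these EpiSC, so a rise or fall between them names a difference in level. Taking the EpiLC mean as a percentage of the EpiSC mean, Lef1 stood at 371%, Otx2 at 176% and Pou3f1 at 133%. Vrtn stood at 88.2% and Bcl11a at 79.4%, means of EpiLC libraries that lay far apart. In the p53-KO and the wild-type EpiLC library Vrtn stood at 24.8% and 152%, and Bcl11a at 33.5% and 125%. In the p53-KO library alone Vrtn lay below Zic5 (47.4%) and Zic2 (26.4%), and Pou3f1 lay at 84.7%. Zic5 stood at 60.9%, Zic2 at 50.4%, Sox4 at 36.4% and Sox11 at 34.8%. By these means Otx2 and Pou3f1, known from the early switch, and Lef1 lay above their EpiSC level in EpiLC, and the Zic and SoxC factors below it.

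By the edgeR test, 0 of the 9 genes passed between EpiSC and EpiLC, where 9.65% of all genes did in either direction. At an unadjusted p under 0.05 there were 5, Otx2, Lef1, Sox11, Zic2 and Sox4, as were 27.7% of all genes. DESeq2 called 2, Sox4 and Lef1, limma on log2(FPKM + 1) called 0 and limma on log2(FPKM + 0.1) called 1, Sox4. Nearest to the threshold were Sox4 at 1.43 ± 0.41 (SE, edgeR adjusted p = 0.0541) and Lef1 at -1.92 ± 0.56 (adjusted p = 0.0592). Sox11 stood at 1.49 ± 0.58 (adjusted p = 0.13), Zic2 at 0.96 ± 0.41 (adjusted p = 0.158) and Zic5 at 0.69 ± 0.33 (adjusted p = 0.2). Otx2 stood at -0.84 ± 0.37 (adjusted p = 0.172), and Pou3f1, Bcl11a and Vrtn lay between -0.44 and 0.30 with adjusted p from 0.565 to 0.894. The libraries did not overlap for 4 genes that lay higher in EpiSC, Sox4, Sox11, Zic2 and Zic5, as for 16.2% of all genes. They did not overlap for 1 that lay lower, Lef1, as for 17.0% of all genes.

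Leaving out single libraries moved these values across the threshold. Sox4 passed without the wild-type EpiLC library (2.19), without haEpi5 or without MEF, Lef1 passed without the haploid ESC or the female EpiSC library, and Zic2 passed without the wild-type EpiLC library (1.92). Without that library the Lef1 value was -1.11, and Pou3f1 turned to 0.24. For Bcl11a and Vrtn the sign turned without the female EpiSC line (-0.07 and -0.17) or without the p53-KO EpiLC library (-0.33 and -0.60).

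**Figure D3:**
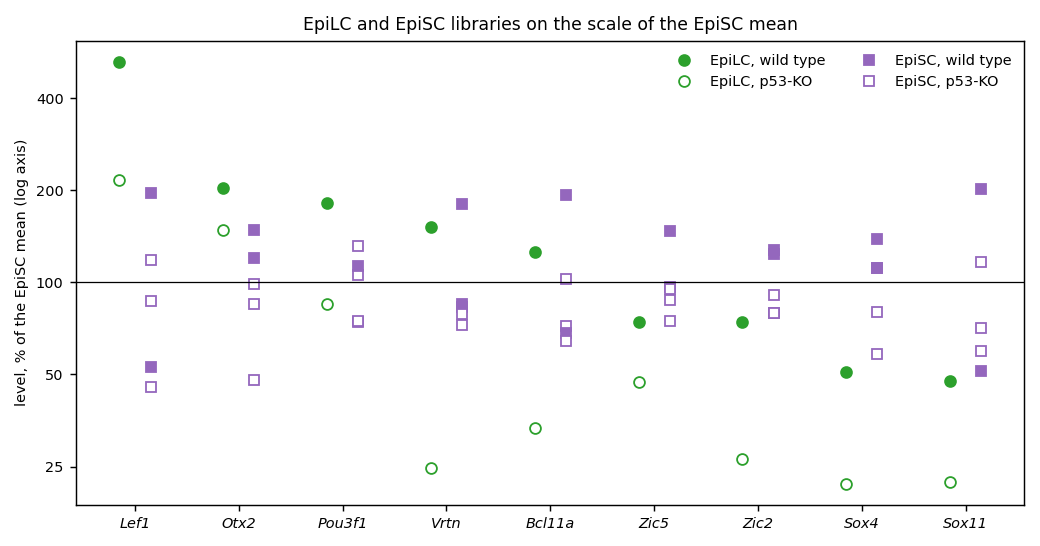
Level of each gene in the 2 EpiLC libraries (circles) and the 5 EpiSC libraries (squares) as a percentage of the EpiSC mean, on a log axis, with filled symbols for wild type and open symbols for p53-KO by label. Both EpiLC libraries of Lef1 and Otx2 lie above 100%, both of Zic2, Zic5, Sox4 and Sox11 lie below it, and the open circle lies below the filled one for all 9 genes.

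**Figure D4:**
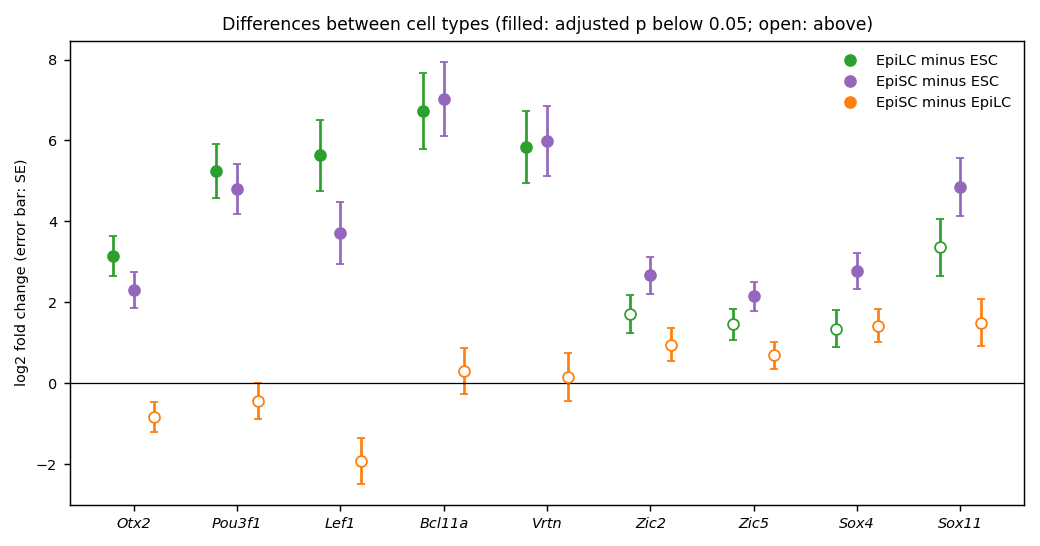
Log2 fold change with its SE for each gene in 3 comparisons of cell types, filled where the edgeR adjusted p was below 0.05. All 9 genes are filled in EpiSC minus ESC, 5 in EpiLC minus ESC and none in EpiSC minus EpiLC, where Lef1 at -1.92 and Sox11 at 1.49 lie at the ends.

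By FPKM, the order of the 9 genes changed between the states. In EpiLC, Pou3f1 had the highest mean (73.3 ± 38.0 FPKM, SD, n = 2), followed by Zic2 (36.6 ± 24.8), Otx2 (27.3 ± 6.31) and Zic5 (16.7 ± 5.35). In EpiSC, Zic2 led (70.8 ± 17.0 FPKM, SD, n = 5), followed by Pou3f1 (53.8 ± 13.4), Zic5 (26.8 ± 7.35), Sox11 (25.6 ± 16.03) and Sox4 (22.8 ± 7.13). The ranges of 1 SD about the means overlapped for the neighbours named, apart from Pou3f1 and Zic5 in EpiSC. Vrtn had 15.8 ± 16.2 FPKM in EpiLC and 17.5 ± 8.07 in EpiSC, and Lef1 had 12.4 ± 7.39 and 3.26 ± 2.01. In ESC, Zic2 (11.4 FPKM) and Zic5 (6.18) were the highest and Bcl11a (0.0105) the lowest.

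The EpiLC libraries differed from each other for the whole set. All 9 genes were lower in the p53-KO than in the wild-type EpiLC library, against 48.4% of all genes, and 7 were at least 2-fold lower, against 9.74% of all genes. With 1 library per label there was no test. Vrtn was 6.09-fold lower, Bcl11a 3.69-fold, Zic2 2.81-fold, Lef1 2.44-fold, Sox4 2.31-fold and both Pou3f1 and Sox11 2.14-fold lower. Zic5 was 1.57-fold and Otx2 1.38-fold lower. The median log2 ratio of the 9 genes was -1.21, against 0.04 over all genes.

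Naive genes went the other way in that pair. Of 18 listed, 15 were higher in the p53-KO library, with a median log2 ratio of 2.86 and a summed level of 2213 CPM against 1182 CPM. Dppa5a, 1 of the 3 that were lower, made up 691 and 787 CPM of these sums. Esrrb, a nuclear receptor of the naive network, was at 186 and 16.8 CPM, and Zfp42, the Rex1 gene, at 142 and 26.7 CPM. Of 18 other genes of the post-implantation epiblast 14 were lower, with a median of -0.96. The part of the naive state in these differences was not tested, and p53 label and culture cannot be told apart within 1 pair. The effect of the p53 label was also compared between cell types, in a fit whose spread came only from 2 pairs of EpiSC libraries. Its p-values therefore do not measure the spread between EpiLC cultures. The difference between the effect of the p53 label in diploid EpiSC and in this pair passed the test for none of the 9 genes (lowest edgeR adjusted p = 0.605, for Vrtn, with a difference of 1.86 ± 0.71). It passed for 0% of the 20583 genes in that fit. At an unadjusted p under 0.05 were 2 of the 9, Vrtn and Zic2, and 7.67% of all genes.

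**Figure D5:**
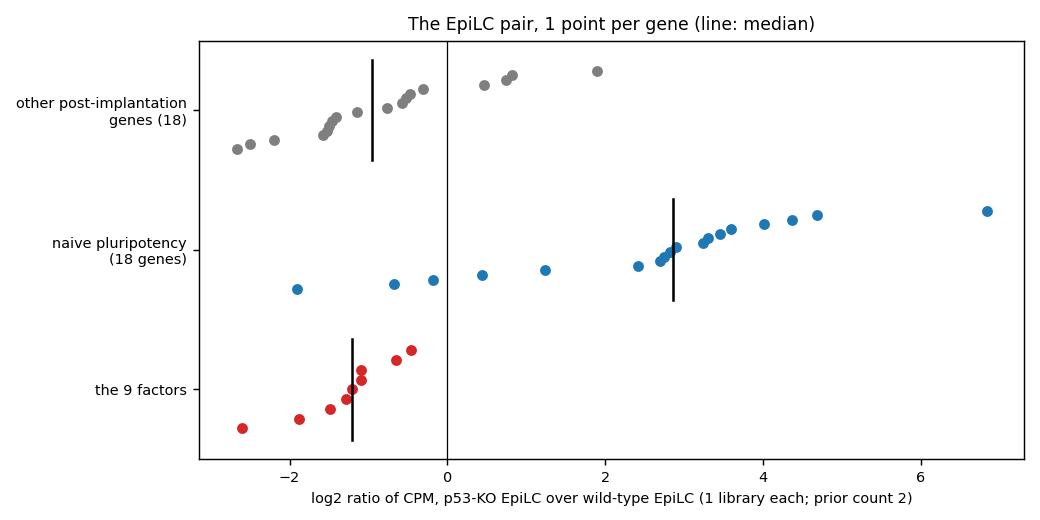
Log2 ratio of CPM between the p53-KO and the wild-type EpiLC library, 1 point per gene, for the 9 factors, 18 naive genes and 18 other post-implantation genes, with a line at each median. All 9 factors lie below 0 with a median of -1.21, and 15 of the 18 naive genes lie above 0 with a median of 2.86.

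In ESC, the 9 genes showed no common direction. Between the haploid and the diploid library, 1 gene was at least 2-fold higher, Pou3f1 (12.2 against 3.04 CPM), against 20.3% of all genes. Lef1 was at least 2-fold lower (1.25 against 3.17 CPM), and the share of all genes this much lower was not counted. Fibroblast genes were higher in haploid ESC for 17 of 18, while 46.4% of all genes were lower. The exception was Fn1 (1020 against 1879 CPM). The part of fibroblast genes in these differences was not tested.

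Among EpiSC lines the genes did not move as 1 block. The female line was the highest for Otx2, Lef1, Sox11, Bcl11a and Vrtn, the male line for Zic2, Zic5 and Sox4, and haEpi5 for Pou3f1. The lowest line was haEpi5 for 4 genes, Otx2, Lef1, Zic5 and Sox4. Sox11 varied most, with a coefficient of variation of 62.1%, beside 61.2% for Lef1 and 53.9% for Bcl11a. Zic2 and Pou3f1 varied least, with 23.7% and 24.9%. Pairwise correlations of log2 CPM among the 9 genes were positive in 36 of 36 pairs over the 9 pluripotent libraries (median r 0.87), which hold the step from ESC. Over the 5 EpiSC libraries alone 24 of 36 were positive (median r 0.31).

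Some primitive streak and Wnt genes were also highest in the female line. T, the streak gene, was at 46.7 CPM there and at 0.113 to 1.66 CPM in the other 4 lines. Chosen after their values were seen, Wnt8a was at 25.8 CPM there and at 0.453 to 1.66 CPM in the others, and the Wnt target Sp5 at 8.92 CPM and 0 to 0.352 CPM. Of the other defining streak markers, Eomes was at 11.2 CPM in the female line and at 3.98 to 8.54 CPM in the other 4. It was higher in haploid ESC (29.5 CPM) and p53-KO EpiLC (23.4 CPM). Mixl1 was at 0.219 CPM in the female line and 0.113 to 0.496 CPM in the others, and Gsc at 0.383 CPM and 0 to 0.346 CPM. The summed level of the 14 streak genes was 77.3 CPM in the female line, with T alone at 46.7 CPM, and 11.5 to 22.4 CPM in the other 4. The part of streak-like cells in the levels of Lef1 or Sox11 was not tested.

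By label group, 0 of the 9 genes passed between the haploid p53-KO and the diploid wild-type EpiSC lines by edgeR, where 0% of 18153 genes did. Unadjusted, 2 had a p under 0.05, as had 3.53% of all genes. These were Otx2 (44.1 against 89.0 CPM, -1.01 ± 0.33) and Zic2 (167 against 265 CPM, -0.66 ± 0.23), both with an adjusted p of 0.977 (edgeR). DESeq2 and limma called 0 of the 9. The value was negative for 8 of 9 genes, Pou3f1 being the exception at 0.34 ± 0.29. Ploidy and p53 label differ together between these groups and cannot be told apart. In the diploid p53-KO line against the diploid wild-type lines all 9 values were negative, from -1.03 ± 0.68 (Bcl11a) to -0.08 ± 0.77 (Lef1), and 0 of 9 passed by edgeR, DESeq2 or limma, with 0% of all genes called by edgeR and none of the 9 at an unadjusted p under 0.05. The median of the 9 values was -0.66 in the first and -0.45 in the second comparison, against -0.01 and -0.07 over all genes tested. Both comparisons share the 2 wild-type lines, so their signs are not independent. Without the female line Lef1, Sox11 and Bcl11a turned to 0.34, 0.35 and 0.37 in the first comparison, and Lef1 and Sox11 to 1.16 and 1.18 in the second.

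In MEF the SoxC genes and Bcl11a were detected at levels nearer to those of EpiSC than the other genes were. In EpiSC against MEF 5 of the 9 genes rose, Otx2, Pou3f1, Vrtn, Zic2 and Zic5, against 5.93% of all genes. Otx2 and Vrtn had no reads in MEF and were at least 347-fold and 341-fold higher in EpiSC, from a floor of 3 counts. Zic5 rose by 7.21 ± 0.69 (0.893 CPM in MEF, edgeR adjusted p = 0.000486) and Zic2 by 5.35 ± 0.75 (5.10 CPM in MEF, adjusted p = 0.00234). Lef1 stood at 3.41 ± 1.03 (adjusted p = 0.0531) and passed without either ESC library, the p53-KO EpiLC library or haEpi5. Sox4 was at 205 CPM in MEF, above all EpiSC libraries (-0.88 ± 0.46, adjusted p = 0.23), and Sox11 was at 87.2 CPM and Bcl11a at 7.27 CPM, below them all. The single MEF library was assumed to vary like the others.

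Summed fibroblast and neural genes lay higher in EpiSC than in EpiLC, as the SoxC genes did. Of 18 fibroblast genes all 18 had a positive value in EpiSC against EpiLC and 3 rose. Their summed level was 1775 to 4250 CPM in EpiSC, 473 and 861 CPM in wild-type and p53-KO EpiLC and 79961 CPM in MEF. Of these, Fn1 alone was at 1159 to 3015 CPM in EpiSC, 370 and 696 CPM in EpiLC and 7304 CPM in MEF. The 6 defining fibroblast markers stood in EpiSC at 0.171% to 13.6% of their MEF level, with a median of 1.67%. Of 16 neural genes 1 rose from EpiLC to EpiSC, Nes, the neural stem cell filament gene (2.84 ± 0.60, edgeR adjusted p = 0.0199), and 1 fell, Dll1, a Notch ligand (-2.26 ± 0.55, adjusted p = 0.0311). Over all genes tested 796 of 21104 rose from EpiLC to EpiSC and 1240 fell. The neural sum was 660 to 1008 CPM in EpiSC, and 157 and 280 CPM in p53-KO and wild-type EpiLC. Nes at 273 to 596 CPM and Stmn2 at 109 to 419 CPM together made up most of the sum in each EpiSC line. In p53-KO and wild-type EpiLC, Nes was at 29.8 and 88.7 CPM and Stmn2 at 72.3 and 32.6 CPM. Of the defining neural markers, Pax6 was at 4.92 to 33.1 CPM and Sox1 at 7.74 to 36.9 CPM in EpiSC. In p53-KO and wild-type EpiLC, Pax6 was at 1.07 and 3.23 CPM and Sox1 at 1.20 and 6.32 CPM. Tubb3 was at 27.9 to 55.9 CPM in EpiSC, below wild-type EpiLC (67.9 CPM) and above p53-KO EpiLC (15.05 CPM). Neurod1 was at 0 in 2 of the 5 EpiSC lines and at most 4.41 CPM. It was higher in wild-type EpiLC than in any EpiSC line, and at 0.126 CPM in p53-KO EpiLC. The part of other cells in the Sox4 and Sox11 levels was not tested.

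Beside the 9 genes, 18 other genes of the post-implantation epiblast were read from a list chosen with earlier results of these data known. Of these, 2 rose in EpiLC against ESC, the growth factor gene Fgf5 (9.33 ± 0.83, edgeR adjusted p = 0.00384) and the kinase gene Pim2 (4.91 ± 0.76, adjusted p = 0.0345), and none fell. In EpiSC against ESC 6 of 18 rose, among them Fgf5 (8.64 ± 0.79, edgeR adjusted p = 0.000238) and Cdh2, the N-cadherin gene (3.52 ± 0.78, adjusted p = 0.0149). From EpiLC to EpiSC 1 rose, Cdh2 (2.75 ± 0.75, edgeR adjusted p = 0.0464), and 3 fell, among them Enox1 (-3.57 ± 0.82) and the ETS factor gene Etv5 (-1.38 ± 0.25). The medians of this list were 1.85, 1.20 and -0.66 in these 3 comparisons, against 3.36, 3.71 and 0.30 for the 9 factors. Of 21104 genes tested, 67 rose in EpiLC against ESC, 1447 in EpiSC against ESC and 796 from EpiLC to EpiSC, where 1240 fell.

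Other lists give the setting of these levels. Beside their counts, 1447 of 21104 genes tested rose and 2126 fell in EpiSC against ESC. From EpiLC to EpiSC 796 rose and 1240 fell. Of 18 naive genes 14 fell in EpiSC against ESC (median log2 fold change -5.92) and 8 fell from EpiLC to EpiSC (median -2.98), while in EpiLC against ESC none passed by edgeR (10 at an unadjusted p under 0.05, 4 by DESeq2, 5 by limma, median -2.27). Of 16 relatives of the 9 factors 4 rose in EpiSC against ESC, among them the SoxB1 gene Sox3 (2.84 ± 0.54, edgeR adjusted p = 0.00749), and 1 fell, Sox2 (-1.36 ± 0.32, adjusted p = 0.0195). Of 12 primitive streak genes tested 1 fell in EpiSC against ESC, Gsc, and none passed between EpiSC and EpiLC by edgeR (2 at an unadjusted p under 0.05, 0 by DESeq2 and 0 by limma). Of 11 extraembryonic endoderm genes tested 1 rose from EpiLC to EpiSC, the collagen gene Col4a1 (3.14 ± 0.70, edgeR adjusted p = 0.0242), and 1 fell, Gata4 (-3.21 ± 0.63, adjusted p = 0.0148).

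The genes whose pattern over the 10 libraries was most like the mean of the 9 were Vwa2 (Pearson r 0.99 with the mean of the standardised log2 CPM), Slc38a1 (0.98), Gdap1l1 (0.98), Plch1 (0.97) and Igsf9 (0.97), among 11373 protein-coding candidates. Vwa2 was at 0.728 ± 0.112 CPM in ESC (SD, n = 2), 11.3 ± 7.23 in EpiLC (n = 2), 18.3 ± 5.34 in EpiSC (n = 5) and 0.446 in MEF. Slc38a1, an amino acid transporter gene, was at 127 ± 14.3, 241 ± 42.0, 308 ± 29.0 and 113 CPM in the same order. The 10 points share the step from ESC to EpiLC and EpiSC, so this likeness is a description.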

How the data were processed

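RNA was sequenced in 10 libraries of 8 groups and 4 cell types, grouped by the labels. The deposited counts are whole reads per gene. Per the submitters' processing notes the authors used HISAT2 2.0.5, featureCounts 1.5.0-p3 and the build mm10. The deposited FPKM values of the authors followed from these counts, the gene length and a factor for each library (largest relative deviation 1.66e-08 over counts above 20). The sources used here give no strand setting. Genes overlapping the 9 members had at most 22 reads in a library.

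The test of counts was that of edgeR 4.0.16, run in R 4.3.3 (filterByExpr, TMM, quasi-likelihood F test, Benjamini-Hochberg adjustment, threshold 0.05). Cell types were compared in 1 fit of 10 libraries, EpiSC groups in 1 fit of 5 and the difference of p53 effects in 1 fit of 9. Pairs of single libraries were compared by log2 CPM with a prior count of 2 and no test. DESeq2 1.42.0 and limma 3.58.1 (on log2(FPKM + 1) and log2(FPKM + 0.1), genes of at least 1 FPKM) were run beside it, with other scaling, no low-count filter, covariates, subsets and each library left out. Each SE was derived from the fold change and its F statistic. All pairs of libraries differed by more than sampling noise (lowest chi-square per degree of freedom 38.9). The tests were also run on simulated counts for EpiSC against ESC, with the same spread for every gene. That setting does not cover the differences between lines within a cell type.

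The members and the 8 gene lists (126 entries: other post-implantation, family, Wnt target, naive, neural, streak, fibroblast and extraembryonic endoderm genes) were chosen with earlier results of these data known. All members were named in every library. From each list up to 4 genes past the threshold with the largest change, or else the 2 with the smallest p, could be named. Genes of like pattern were the 5 protein-coding genes of at least 5 CPM with the highest Pearson correlation. The result of 1 list gene is not reported here.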

Additional observations from a re-analysis of the deposited data

Results flagged for a closer look

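Vrtn stood at 118 CPM in the female EpiSC line, apart from 47.4 to 55.5 CPM in the other 4 EpiSC lines, a gap that took up most of the range of the group. The same check was made for each of the 9 genes in the 5 EpiSC lines, and chance alone marks about 1 in 20 such groups. The Vrtn difference between EpiSC and EpiLC was 0.15 with all libraries and -0.17 without this line.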

How the results depend on the processing

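Of the 9 genes, the number past the threshold in EpiLC against ESC was 5, and it became 8 by DESeq2 and 8 with no low-count filter, 3 by limma on log2(FPKM + 1), 0 with wild-type libraries only, 0 with haploid libraries only and 0 to 6 with 1 library left out. In EpiSC against ESC it was 9, and 2 with wild-type and 1 with haploid libraries only (8 to 9 with 1 library left out). In EpiSC against EpiLC it was 0, and 3 with no filter, 2 by DESeq2, 1 by limma on log2(FPKM + 0.1), 1 with p53 label and ploidy as covariates and 0 to 2 with 1 library left out. In EpiSC against MEF it was 5 to 6 with 1 library left out. Signs turned in EpiSC against EpiLC for Pou3f1 (-0.86 to 0.24 with 1 library left out, 0.47 with covariates), Bcl11a (-0.33 to 1.57) and Vrtn (-0.60 to 2.01, -0.17 in wild-type and -0.21 in haploid libraries). Between haploid p53-KO and wild-type EpiSC they turned, with 1 library left out, for Lef1 (-1.57 to 0.34), Sox11 (-1.64 to 0.35) and Bcl11a (-1.15 to 0.37). Between the diploid EpiSC groups they turned by limma for Lef1 (0.10 and 0.19 with pseudocounts 1 and 0.1) and Sox11 (0.16 and 0.18), and with 1 library left out (-0.74 to 1.16 and -0.80 to 1.18). All 9 signs were kept in EpiLC against ESC, EpiSC against ESC and EpiSC against MEF under every alternative run. The causes were not tested. Over all genes, the calls in EpiLC against ESC were 90, and 952 by DESeq2, 676 with no filter, 310 and 246 by limma, 28 with covariates, 0 in either subset and 1 (without diploid ESC) to 216 (without p53-KO EpiLC) with 1 library left out. In EpiSC against ESC they were 3573, and 2239 with covariates, 70 in wild-type and 192 in haploid libraries and 1626 (without diploid ESC) to 3569. In EpiSC against EpiLC they were 2036, and 3622 by DESeq2, 3162 with no filter, 1297 with covariates, 0 in wild-type and 555 in haploid libraries and 554 (without p53-KO EpiLC) to 2631. In the haploid p53-KO comparison they were 0 (641 at an unadjusted p under 0.05, 22 by DESeq2, 136 with no filter, 0 to 144 with 1 line left out) and in the diploid one 0 (700, 135, 242 and 0 to 152). No paired analysis was possible because the labels give no replicate numbers shared between groups. Depth limits Bcl11a in ESC, with 2 and 3 reads.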
